A study of Arabidopsis thaliana with 32 samples.

Results

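The subject is the change in root gene expression between 4 and 8 days of growth in ground-grown seedlings of Arabidopsis thaliana accession Col-0. Its members are all loci in the authors' deposited table of that comparison, 2235 of the 9013 lines in the 8 tables of the study. Wild-type plants of Col-0 and WS were grown on the International Space Station or on the ground and taken at both ages, giving 8 groups of 4 replicate libraries. Here the groups were untreated, light-grown Col-0 seedlings of 4 days and of 8 days. Both grew on vertical plates of half-strength nutrient medium (0.5 times Murashige and Skoog) in the ground unit of the plant growth hardware, inside a chamber that repeated the orbital environment 48 h later. Whole roots were dissected after preservation in RNAlater. Each replicate of the younger age pooled 5 to 8 roots and each of the older age 2 to 3, so age and the number of plants averaged cannot be told apart. The comparison asks which transcripts change as a ground-grown root ages, the reference against which development in orbit is set.

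Between these ages an Arabidopsis root grows by division in its tip, while the older part differentiates. There the endodermis adds suberin, epidermal cells form hairs, and a cambium starts to thicken the root with new xylem and phloem. Transport of nitrate, phosphate and iron responds to supply in the medium and to the demand of the shoot. MADS-box transcription factors, best known from flowers, also act in roots, where several take part in meristem and flowering-time control.

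Each level below is the authors' deposited group value in FPKM, fragments scaled to transcript length and library size, estimated from 4 libraries, and no level per library was used. A change is log2 of the 8 day level over the 4 day level, so positive values are higher at 8 days. The ± value is the error of that log2 change implied by the deposited test statistic. A locus is called where the deposited q-value is 0.05 or less, and rose or fell is written only of called loci. Total read counts were not given, so depth is unknown.

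The authors' deposited table called 2235 of 19905 tested loci, 11.2% of them. Higher at 8 days were 1133 loci, 5.69% of those tested, and lower were 1102, 5.54%. Changes were mostly modest, with a median size of 0.68 on the log2 scale among called loci in the authors' deposited table. The median was 0.74 for loci that rose and -0.62 for those that fell. Large changes leaned upward, since 353 loci rose and 225 fell by 1 log2 unit or more, and 95 rose and 38 fell by 2 or more. The smallest q-value, 0.00107, was shared by 934 loci at the smallest p-value the authors' test gave. Of the called loci, 2082 held 1 annotated gene, and 2072 genes entered the lists below. A list gene found only in a called locus of several genes was not counted as rising or falling. Such were 2 iron genes and 1 gene each of the cell cycle, suberin, phosphate, glucosinolate, low oxygen and aquaporin lists. In whole-root RNA, more cells of a type and more RNA per cell cannot be told apart.

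**Figure D1:**
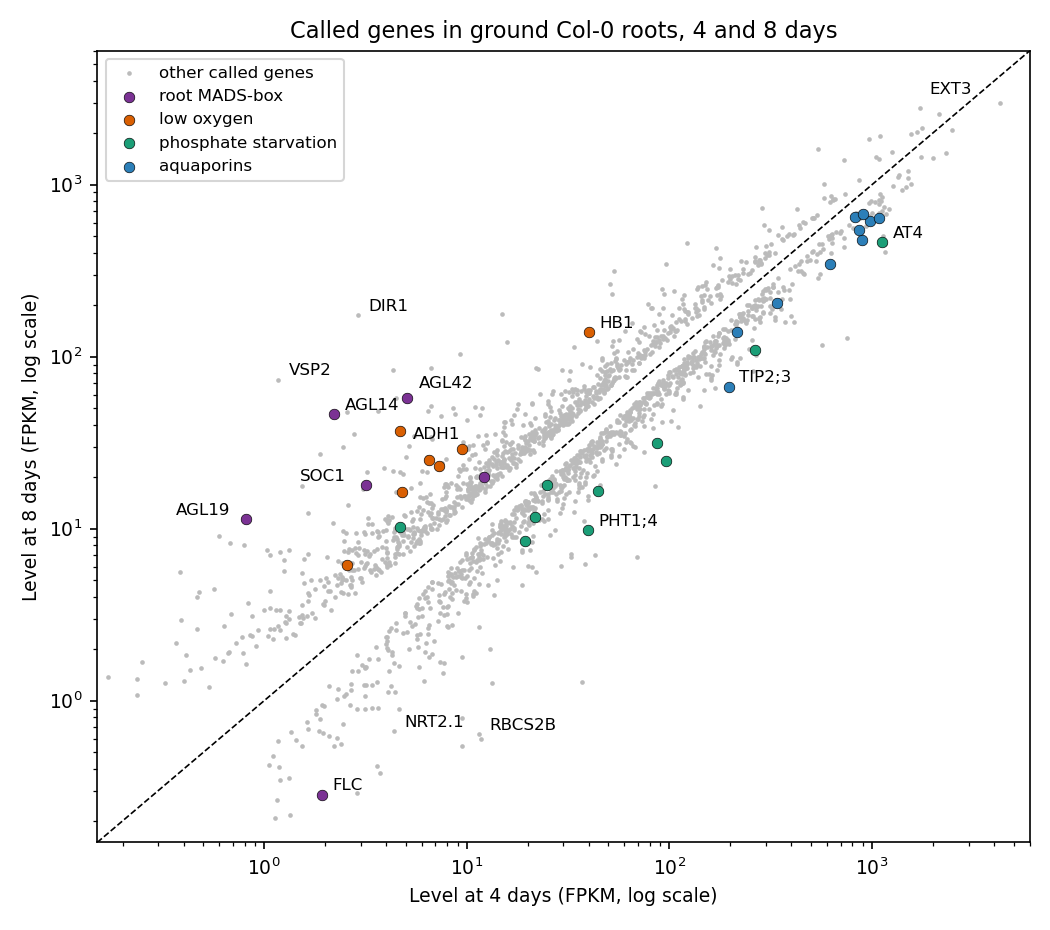
Deposited group levels of called genes at 4 days (x axis) and 8 days (y axis), both in FPKM on log scales; each point is 1 gene, the dashed line marks equal levels, and 4 gene lists are coloured. AGL14, AGL19, AGL42 and SOC1 lie far above the line with VSP2 and DIR1, while the called aquaporins and all but 1 of the 10 phosphate genes plotted lie below it.

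Among genes above 0 FPKM at both ages and at 5 FPKM or more in the higher group, VSP2 rose most. It encodes a vegetative storage protein induced by jasmonate and rose from 1.18 to 73.6 FPKM in the authors' deposited table, a change of 5.97 ± 1.52. Its paralog VSP1 rose from 6.70 to 86.3 FPKM in the authors' deposited table (3.69 ± 0.89). The 2 genes are close in sequence, so reads could be split between them. DIR1 (chromosome 5, 19646232 to 19646802, TAIR10), a lipid-transfer protein of long-distance defence signalling in leaves, rose from 2.89 to 175 FPKM in the authors' deposited table, 60.6 times (5.92 ± 0.69). This was the highest 8 day level among the 12 largest rises.

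Several genes described here by their family annotation alone stood in the same range. AT1G52820, annotated as a 2-oxoglutarate and iron dependent oxygenase, rose from 4.33 to 83.8 FPKM in the authors' deposited table (4.28 ± 0.53). AT4G33720, of the family of cysteine-rich secretory proteins, rose from 2.57 to 47.9 FPKM in the authors' deposited table (4.22 ± 0.62). An O-methyltransferase gene, AT1G77520, and a berberine-bridge type oxidase gene, AT5G44400, rose by 3.84 ± 0.52 and 3.73 ± 0.84 in the authors' deposited table. The rest of the 12 were AT2G26695, a zinc finger protein gene (3.91 ± 1.48), the homeodomain-like gene AT2G02060 (3.86 ± 1.22), AT4G14060 (3.68 ± 0.59), and AGL14 and AGL19, described next.

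Among 10 root MADS-box genes listed, 5 rose and 1 fell, beside the 5.69% and 5.54% of all tested loci called in each direction. The lists here and below were chosen with earlier results of these data known, so such counts are no test. AGL14, also called XAANTAL2 and needed for normal auxin transport in the root meristem, rose from 2.22 to 46.6 FPKM in the authors' deposited table (4.39 ± 0.59). AGL19, a promoter of flowering that is expressed in roots, rose from 0.818 to 11.3 FPKM in the authors' deposited table (3.79 ± 0.91). AGL42, known from the quiescent centre, rose from 5.05 to 57.2 FPKM in the authors' deposited table (3.5 ± 1.12). These 3 genes were near or below 5 FPKM at 4 days and above 11 FPKM at 8 days.

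SOC1, which integrates flowering signals in the shoot apex, rose from 3.19 to 18 FPKM in the authors' deposited table (2.5 ± 0.47). AGL21, tied to lateral root growth, was already at 12.2 FPKM at 4 days in the authors' deposited table and rose to 19.9 (0.71 ± 0.40). FLC, the floral repressor that acts on SOC1 in leaves and shoot apex, fell from 1.92 to 0.284 FPKM in the authors' deposited table (-2.75 ± 1.88). Its error is wide beside a q-value of 0.011. AGL12, AGL17, AGL24 and ANR1 (AGL44) were not called. The wider family of 120 genes annotated as MADS-box or AGAMOUS-like was added after its values were seen. Of its members 9 rose and 1 fell, where 5.69% and 5.54% of all tested loci were called higher and lower. The share that rose was near that over all loci. Of the 9 that rose, AGL79, AGL71 and AT5G26630 are listed at 0 at 4 days. At 8 days they are at 2.91, 1.09 and 1.35 FPKM in the authors' deposited table.

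**Figure D2:**
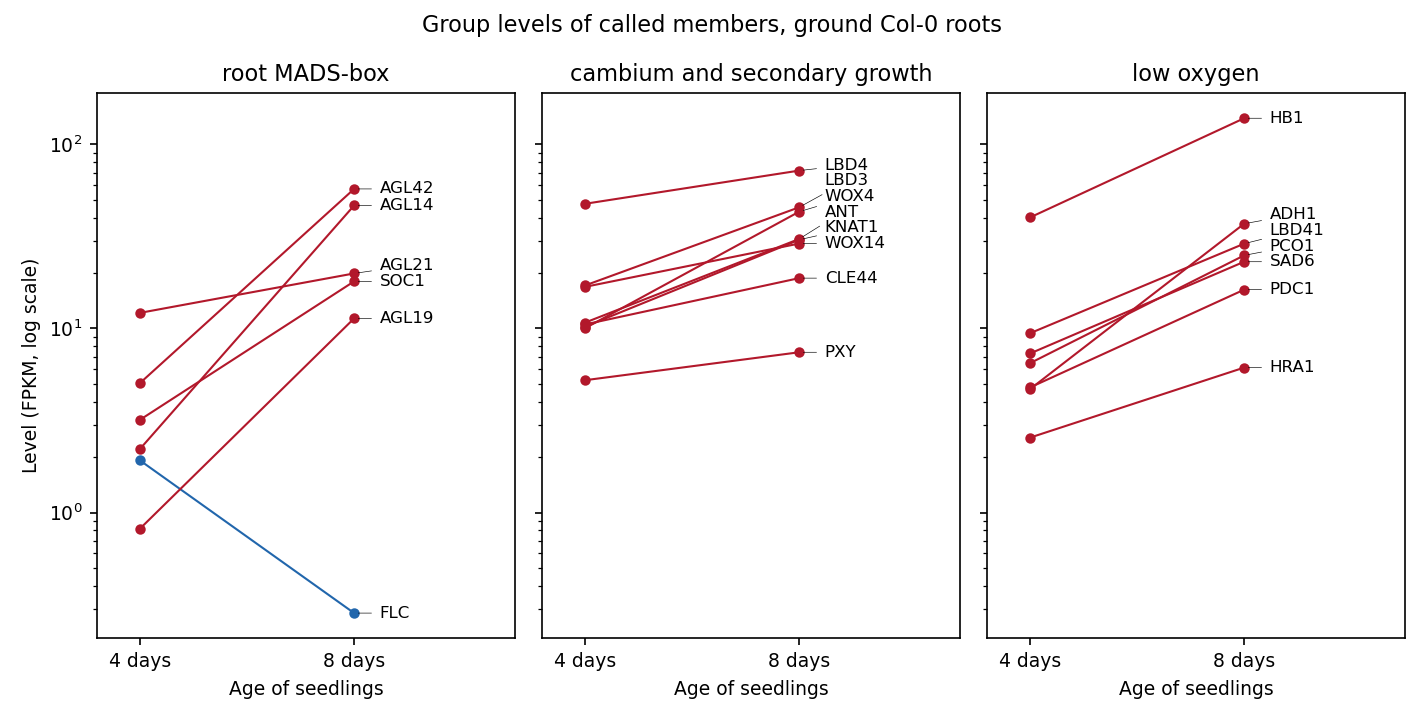
Deposited group levels at 4 and 8 days (y axis, FPKM, log scale) of the called members of 3 gene lists; each line is 1 gene, red where it rose and blue where it fell. In the MADS-box panel the levels cross, FLC falling while AGL14 rises from 2.22 to 46.6 FPKM; all called cambium and low oxygen members rose.

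Of 13 genes of the vascular cambium 8 rose, none fell and 5 were not called, beside 5.69% of all tested loci called higher. The median over the 8 was 1.12, beside 0.74 over all loci that rose. WOX4, a homeobox factor that keeps the cambium dividing, rose from 10.0 to 43.1 FPKM in the authors' deposited table (2.1 ± 0.36). KNAT1, a class I KNOX factor, rose from 10.2 to 30.3 FPKM in the authors' deposited table (1.57 ± 0.30). ANT, an AP2-type factor of dividing tissue, rose from 10.8 to 30.6 FPKM in the authors' deposited table (1.51 ± 0.39). These 3 started at nearly the same level.

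Genes of peptide signalling in the cambium were called in part. CLE44, which encodes the peptide TDIF made in the phloem, rose from 10.5 to 18.8 FPKM in the authors' deposited table (0.84 ± 0.42). PXY, the receptor kinase for that peptide, was at 5.23 FPKM at 4 days and 7.42 FPKM at 8 days in the authors' deposited table (0.50 ± 0.32). LBD3 and LBD4, targets of cytokinin and of the peptide signal, rose by 1.41 ± 0.64 and 0.60 ± 0.37 in the authors' deposited table. WOX14, which acts beside WOX4, rose by 0.78 ± 0.36 in the same authors' deposited table. Not called were CLE41, HB8, LBD1, LBD11 and MYB84.

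Of 18 phloem genes, 7 rose and 1 fell, beside 5.69% and 5.54% of all tested loci. At a q-value of 0.01 or less 4 rose. SEOR2 and SEOR1, which form the protein filaments of sieve elements, rose from 3.42 to 10.7 and from 4.05 to 7.28 FPKM in the authors' deposited table (1.65 ± 0.36 and 0.85 ± 0.38). PP2-A1, a phloem lectin of companion cells, rose from 23.1 to 60.5 FPKM in the authors' deposited table (1.39 ± 0.29). CLE45, a peptide of early protophloem, rose by 1.18 ± 0.62, and OPS, which promotes sieve element formation, by 0.79 ± 0.45 in the authors' deposited table. The sugar exporter SWEET11 went the other way, from 9.95 to 3.94 FPKM in the authors' deposited table (-1.33 ± 0.47).

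Of 34 listed genes of xylem and secondary wall, LAC17, a laccase of lignin formation, was called, and it fell from 9.93 to 4.15 FPKM in the authors' deposited table (-1.26 ± 0.41). The other 33 were not called. Over all tested loci 11.2% were called in either direction and 5.54% were called lower, so this list held no larger share.

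Of 28 cytokinin genes 6 rose and 1 fell, beside 5.69% and 5.54% of all tested loci called higher and lower. The type-A response regulators ARR7, ARR15, ARR4, ARR9 and ARR5 rose, and these are induced by cytokinin and damp its signal. ARR7 rose from 26.7 to 63.4 FPKM in the authors' deposited table (1.25 ± 0.31), and ARR4 from 122 to 182 FPKM (0.58 ± 0.21). CKX7, a cytokinin oxidase, rose from 2.54 to 5.03 FPKM in the authors' deposited table (0.98 ± 0.48). ABCG14, which exports cytokinin to the shoot, fell from 71.4 to 49.3 FPKM in the authors' deposited table (-0.53 ± 0.23).

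Of 44 cell cycle genes 4 rose and none fell in the authors' deposited table, beside 11.2% of all tested loci called in either direction and 5.69% called higher. CYCD6;1, a cyclin of formative divisions, rose from 5.29 to 17.2 FPKM in the authors' deposited table (1.70 ± 0.43). CDKB2;2, CYCA1;1 and TOPII, of mitosis and DNA replication, rose by 0.69 ± 0.49, 0.55 ± 0.29 and 0.49 ± 0.28 in the authors' deposited table. Among 48 annotated histone genes 6 rose and none fell, HTB2 most among them, from 144 to 224 FPKM in the authors' deposited table (0.64 ± 0.28). No tubulin gene of 13 was called.

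Of 14 low oxygen genes 7 rose, beside 5.69% of all tested loci called higher, and none fell. Of the other 7, 1 lies only in a called locus of several genes and was not counted. The median over those that rose was 1.76, beside 0.74 over all loci that rose. ADH1, alcohol dehydrogenase of ethanolic fermentation, rose from 4.69 to 37.1 FPKM in the authors' deposited table, 7.91 times (2.98 ± 0.74). PDC1, pyruvate decarboxylase of the step before it, rose from 4.78 to 16.2 FPKM in the authors' deposited table (1.76 ± 0.38). HB1, the haemoglobin that scavenges nitric oxide, was the most abundant of them and rose from 40.1 to 139 FPKM in the authors' deposited table (1.79 ± 0.26).

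Among regulators of the response, some rose. PCO1, the oxidase that marks the oxygen-sensing factors for breakdown, rose from 6.48 to 24.9 FPKM in the authors' deposited table (1.94 ± 0.40). SAD6, a stearoyl-ACP desaturase, rose by 1.66 ± 0.46 in the authors' deposited table. HRA1, a repressor of these factors, rose from 2.55 to 6.13 FPKM in the authors' deposited table (1.26 ± 0.54). LBD41, a LOB-domain factor and marker of hypoxia, rose from 9.42 to 28.9 FPKM in the authors' deposited table (1.62 ± 0.34). No rise or fall was counted for PDC2, SUS1, SUS4, HRE1, HRE2, PCO2 and ETR2, 1 of them in a called locus of several genes.

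Barrier tissues of the endodermis changed unequally. Of 18 suberin genes 5 rose, beside 5.69% of all tested loci called higher, and none fell. At a q-value of 0.01 or less 2 rose. FAR1, a fatty acyl reductase, rose from 14.8 to 32.7 FPKM in the authors' deposited table (1.14 ± 0.73), and GPAT5, an acyltransferase of suberin monomers, from 5.48 to 9.62 FPKM (0.81 ± 0.37). FAR5, MYB93 and the hydroxylase CYP86A1 rose by 0.67 ± 0.30, 0.68 ± 0.39 and 0.49 ± 0.33 in the authors' deposited table. The median over the suberin members was 0.68.

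Of 11 genes of the Casparian strip, the lignin ring laid down earlier in endodermal life, 3 fell and none rose. The share of all tested loci called lower was 5.54%. CASP5, a scaffold protein of the strip, fell from 38.1 to 6.27 FPKM in the authors' deposited table, 6.09 times (-2.61 ± 0.54). The peroxidase gene PRX72 fell from 162 to 78.6 FPKM (-1.04 ± 0.22) and the dirigent gene ESB1 from 43.7 to 31.9 FPKM (-0.45 ± 0.28) in the authors' deposited table. CASP1 to CASP4 and their regulator MYB36 were not called.

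Of 15 genes of phenylpropanoid and monolignol synthesis 6 fell, none rose and 9 were not called. HCT, C3H1 and CAD4, of steps toward monolignols, fell by 0.72 ± 0.20, 0.72 ± 0.35 and 0.72 ± 0.31 in the authors' deposited table, HCT from 276 to 168 FPKM. OMT1 and FAH1, of the branch to sinapyl units, fell by 0.61 ± 0.19 and 0.60 ± 0.39, and 4CL1 by 0.39 ± 0.20 in the authors' deposited table. In related families, 16 of 78 class III peroxidase genes fell and 4 rose, 7 of 26 dirigent genes fell, and 3 of 17 laccase genes fell, beside 5.54% of all tested loci. Among the peroxidases the largest change was upward, AT2G18150 from 9.28 to 104 FPKM in the authors' deposited table (3.48 ± 0.32).

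Stress hormone lists gave mixed counts, beside 5.69% of all tested loci called higher and 5.54% lower. Of 27 jasmonate genes 3 rose, JAZ5, a repressor of the pathway (1.62 ± 0.70 in the authors' deposited table), and the storage protein genes VSP1 and VSP2 described above. The synthesis genes LOX2, AOS and OPR3 were not called. Of 24 genes of abscisic acid, drought and cold, 6 rose and 2 fell in the authors' deposited table. KIN2 and KIN1, small hydrophilic proteins of cold and drought, rose from 576 to 1010 and from 105 to 240 FPKM in the authors' deposited table (0.81 ± 0.20 and 1.19 ± 0.25). The homeobox genes HB12 and HB7 rose by 1.05 ± 0.34 and 0.99 ± 0.34, and the galactinol synthase GOLS3 by 1.49 ± 0.57 in the authors' deposited table. RD22, a drought-induced gene, fell from 10.8 to 4.07 FPKM in the authors' deposited table (-1.40 ± 0.43), and RD29A by 0.65 ± 0.42.

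**Figure D3:**
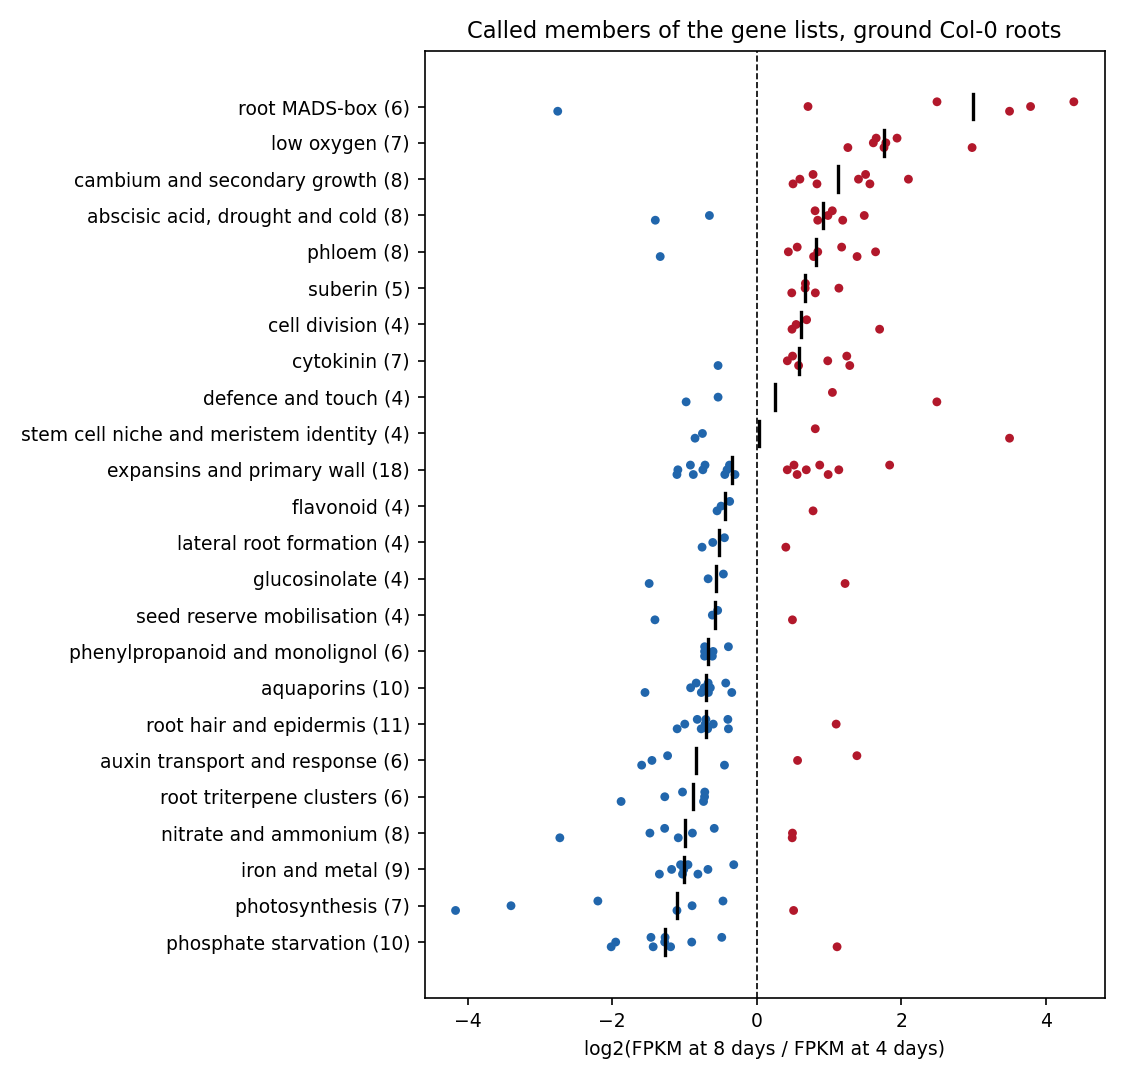
Log2 of the 8 day over the 4 day level (x axis) for called members of the gene lists with 4 or more such members (rows, number plotted in brackets); each point is 1 gene, red where it rose and blue where it fell, and black bars are medians. MADS-box, low oxygen and cambium lists have the highest medians (3.00, 1.76 and 1.12), and phosphate starvation has the lowest (-1.27).

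The largest falls included genes of photosynthesis. RBCS2B, a small subunit gene of Rubisco (chromosome 5, 15380945 to 15382035, TAIR10), fell from 11.4 to 0.636 FPKM in the authors' deposited table, 18 times (-4.17 ± 1.05). Its neighbours RBCS1B and RBCS3B fell from 13.4 to 1.27 FPKM (-3.40 ± 0.79) and from 32.5 to 7.09 FPKM (-2.20 ± 0.41) in the authors' deposited table. The 3 genes lie side by side and are close copies, so reads could be split among them. The Rubisco activase gene RCA fell from 35.3 to 16.4 FPKM in the authors' deposited table (-1.10 ± 0.34). Of the 50 photosynthesis genes, markers of green tissue, 6 fell and 1 rose, PSAE-1 of photosystem I (0.51 ± 0.34 in the authors' deposited table). Over all tested loci 5.54% were called lower and 5.69% higher. The 6 summed to 173 FPKM at 4 days and 71.8 FPKM at 8 days in the authors' deposited table. Levels of the 43 genes not called are not listed, and the part of green tissue in the other results was not tested. No seed storage or late embryo gene of 17 was called.

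Other large falls were spread over functions. AT2G04460, of unknown function, fell most, from 37.0 to 1.28 FPKM in the authors' deposited table (-4.86 ± 0.78). ECS1 fell from 11.8 to 0.598 FPKM (-4.30 ± 1.25) and the cytochrome P450 gene AT3G44970 from 9.48 to 0.543 FPKM (-4.12 ± 1.26) in the authors' deposited table. Further down came MLP168 of the major latex protein family (-3.58 ± 1.03), AT1G09310 of unknown function (-3.33 ± 0.42), the cysteine proteinase CP1 (-2.71 ± 1.37) and the trypsin inhibitor TI1 (-2.60 ± 0.58), all in the authors' deposited table. AT5G33330, annotated as a ribonuclease H-like protein, was the most abundant of the 12, at 749 FPKM at 4 days and 128 FPKM at 8 days in the authors' deposited table (-2.54 ± 0.89). UGE3, of UDP-galactose supply, fell from 7.66 to 1.45 FPKM in the authors' deposited table (-2.40 ± 0.94), and CASP5 completes the 12.

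Of 30 phosphate starvation genes 10 fell and 1 rose, beside 5.54% and 5.69% of all tested loci called lower and higher. Of the other 19, 1 lies only in a called locus of several genes. The median was -1.27 over the 10 called genes with a fold change. The transporters came first: PHT1;4 fell from 39.8 to 9.87 FPKM (-2.01 ± 0.29) and PHT1;1 from 264 to 109.5 FPKM (-1.27 ± 0.23) in the authors' deposited table. PHO1;H1, of phosphate loading into the xylem, fell from 19.5 to 8.52 FPKM in the authors' deposited table (-1.19 ± 0.28). All 3 carry phosphate across membranes.

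Regulators and lipid enzymes of the response followed. SPX1, a phosphate sensor, fell from 87.0 to 31.6 FPKM in the authors' deposited table (-1.46 ± 0.26). IPS1 and AT4, non-coding RNAs that sequester miR399, fell from 95.8 to 24.8 FPKM (-1.95 ± 0.58) and from 1124 to 465 FPKM (-1.27 ± 0.19) in the authors' deposited table. GDPD1, which breaks down glycerophosphodiesters, fell from 44.7 to 16.5 FPKM in the authors' deposited table (-1.43 ± 0.32). SQD2 and SQD1, which make sulfolipid in place of phospholipid, fell by 0.90 ± 0.49 and 0.48 ± 0.28 in the authors' deposited table. The phosphatase gene PECP1 was at 2.92 FPKM at 4 days and is listed at 0 at 8 days in the authors' deposited table. NPC4, a phospholipase C of the same response, rose from 4.70 to 10.2 FPKM in the authors' deposited table (1.11 ± 0.38).

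Of the 11 called phosphate genes, AT4, GDPD1 and NPC4 hold the letters GNATATNC, known as P1BS and bound by the regulator PHR1, in the 300 bases before their start, on either strand. The share over all 27443 protein-coding promoters of that length was 6.5%. The promoters of AT4 (chr5:894282-894581, plus strand) and GDPD1 (chr3:350011-350310, minus strand; both RefSeq, TAIR10.1) are shown as those of genes that fell, with matches in capitals.
AT4: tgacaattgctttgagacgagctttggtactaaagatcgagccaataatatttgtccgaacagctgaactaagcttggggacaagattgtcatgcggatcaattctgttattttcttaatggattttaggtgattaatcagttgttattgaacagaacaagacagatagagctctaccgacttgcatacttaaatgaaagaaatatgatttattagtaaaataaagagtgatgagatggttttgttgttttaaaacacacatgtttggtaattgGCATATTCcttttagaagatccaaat
GDPD1: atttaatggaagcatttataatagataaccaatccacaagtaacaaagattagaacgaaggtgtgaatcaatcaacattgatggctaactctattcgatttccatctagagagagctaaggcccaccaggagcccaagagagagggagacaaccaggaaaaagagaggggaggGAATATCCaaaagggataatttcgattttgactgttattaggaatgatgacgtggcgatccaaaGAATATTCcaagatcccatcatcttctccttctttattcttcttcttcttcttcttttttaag
AT4 has 1 match, from 26 to 19 bases before the start, and GDPD1 has 2, from 127 to 120 and from 63 to 56 bases before it. The motif is present in the gene that rose as well as in those that fell. A match describes these letters and shows no binding. P1BS was picked for display after 10 motifs were searched, so the shares are no test.

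Of 35 genes of nitrate and ammonium uptake and use 6 fell, 2 rose and 27 were not called. Over all tested loci 5.54% were called lower and 5.69% higher. NRT2.1, the main high-affinity nitrate transporter of the root, fell from 4.38 to 0.662 FPKM (-2.72 ± 0.73) and its partner protein NRT3.1 from 102 to 42.3 FPKM (-1.27 ± 0.42) in the authors' deposited table. The ammonium transporters AMT1;1 and AMT1;3 fell from 25.7 to 9.24 FPKM (-1.48 ± 0.78) and from 56.4 to 26.6 FPKM (-1.08 ± 0.29) in the authors' deposited table. The glutamine synthetases GLN1;2 and GLN1;1, which take up the ammonium into amino acids, fell by 0.89 ± 0.31 and 0.59 ± 0.31 in the authors' deposited table. BT1 and GDH1 rose by 0.50 ± 0.33 and 0.49 ± 0.31 in the authors' deposited table.

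Iron and metal genes fell in 9 of 35 cases, beside 5.54% of all tested loci called lower, and none rose. FIT, the master regulator of iron uptake in the epidermis, fell from 43.7 to 21.7 FPKM in the authors' deposited table (-1.01 ± 0.29). Nicotianamine synthases, which make the chelator for iron transport, fell: NAS2 by 1.18 ± 0.32, NAS4 by 1.05 ± 0.36 and NAS1 by 1.03 ± 0.50 in the authors' deposited table. F6'H1 and ABCG37, which make and export iron-mobilising coumarins, fell by 0.95 ± 0.37 and 0.81 ± 0.24 in the authors' deposited table. The storage genes VTL1, a vacuolar iron transporter, and FER1, ferritin, which are induced by iron surplus, fell too, by 1.35 ± 0.34 and 0.67 ± 0.41 in the authors' deposited table. Of 10 sulfate genes 3 fell, the largest being LSU1 (-0.97 ± 0.54 in the authors' deposited table).

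Water channels were among the most abundant genes that fell. Of 20 aquaporins, 10 fell, beside 5.54% of all tested loci called lower, and none rose. The summed level of the 10 went from 6912 to 4345 FPKM in the authors' deposited table. The plasma membrane channels PIP2;1 and PIP1;1 fell from 1083 to 637 FPKM (-0.77 ± 0.18) and from 895 to 475 FPKM (-0.91 ± 0.19) in the authors' deposited table. TIP2;3, a tonoplast channel that also carries ammonia, changed most, from 196 to 67.1 FPKM in the authors' deposited table (-1.55 ± 0.23). The other 7 fell by 0.84 or less.

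Of 30 listed genes of root hairs and epidermis 10 fell, 1 rose and 19 were not called. The shares of all tested loci were 5.54% called lower and 5.69% higher. PRP3 and PRP1, proline-rich wall proteins of hairs, fell from 160 to 74.7 FPKM (-1.10 ± 0.30) and from 30.1 to 15.1 FPKM (-0.99 ± 0.59) in the authors' deposited table. EXPA18, an expansin of hair initiation, and RSL2, a bHLH factor of hair growth, fell by 0.82 ± 0.55 and 0.77 ± 0.40 in the authors' deposited table. WER, a MYB factor of cells that form no hair, rose from 40.5 to 86.9 FPKM in the authors' deposited table (1.1 ± 0.52). In the wider family of extensins and proline-rich proteins 24 of 208 fell and 7 rose. EXT3, the most abundant of the called genes, fell from 4297 to 3000 FPKM in the authors' deposited table (-0.52 ± 0.22). Levels of genes not called are not listed.

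Wall-loosening genes were divided. Of 33 expansin and primary wall genes 8 rose and 10 fell, beside 5.69% and 5.54% of all tested loci. At a q-value of 0.01 or less 5 fell. XTH9, a xyloglucan-modifying enzyme, rose most, from 95.9 to 344 FPKM in the authors' deposited table (1.84 ± 0.38). EXPA10 and EXPA6 rose by 1.14 ± 0.55 and 0.99 ± 0.23 in the authors' deposited table. XTH12, XTH21 and XTH17 fell by 1.1 ± 0.64, 1.09 ± 0.41 and 0.92 ± 0.26 in the authors' deposited table. CESA1 and CESA3, of primary wall cellulose synthase, fell by 0.88 ± 0.36 and 0.74 ± 0.27 in the authors' deposited table. All 5 called expansins of this list rose.

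Of 11 root triterpene genes 6 fell, none rose and 5 were not called, and 3 of the 6 fell where genes were limited to 800 to under 2500 nt. MRN1, marneral synthase, fell from 5.79 to 1.58 FPKM in the authors' deposited table (-1.88 ± 0.48). Its neighbours CYP71A16 and CYP705A12, which act on the same product or lie in its cluster, fell by 0.72 ± 0.36 and 1.03 ± 0.65 in the authors' deposited table. The 3 lie together on chromosome 5 between 17023502 and 17058245 (RefSeq, TAIR10.1). No run of 4 or more neighbouring protein-coding genes was called in 1 direction. Runs of 3 numbered 7, a length taken after the values were seen, among them the RBCS genes and this cluster. Of 248 P450 genes 16 fell and 8 rose, and of 131 UDP-glycosyltransferase genes 10 fell and 2 rose. Both shares that fell were near the 5.54% of all tested loci called lower.

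Called flavonoid genes had small changes. Of 18, 3 fell and 1 rose, beside 5.54% and 5.69% of all tested loci. CHS, chalcone synthase, the entry enzyme, fell from 1088 to 773 FPKM in the authors' deposited table (-0.49 ± 0.18). MYB12, the activator of flavonol synthesis, fell from 89.2 to 61.0 FPKM (-0.55 ± 0.23), and F3H from 158 to 122 FPKM (-0.37 ± 0.21) in the authors' deposited table. The glycosyltransferase gene UGT78D1 rose from 4.59 to 7.89 FPKM in the authors' deposited table (0.78 ± 0.46). The promoters of CHS (chr5:4488176-4488475, plus strand) and MYB12 (chr2:19476026-19476325, plus strand; both RefSeq, TAIR10.1) are shown for the G-box CACGTG, in capitals, a palindrome bound by bHLH and bZIP factors.
CHS: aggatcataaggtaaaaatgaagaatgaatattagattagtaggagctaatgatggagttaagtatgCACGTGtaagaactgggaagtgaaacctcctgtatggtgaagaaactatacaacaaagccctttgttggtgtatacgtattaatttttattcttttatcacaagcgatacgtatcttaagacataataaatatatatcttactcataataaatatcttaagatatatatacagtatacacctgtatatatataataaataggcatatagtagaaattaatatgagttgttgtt
MYB12: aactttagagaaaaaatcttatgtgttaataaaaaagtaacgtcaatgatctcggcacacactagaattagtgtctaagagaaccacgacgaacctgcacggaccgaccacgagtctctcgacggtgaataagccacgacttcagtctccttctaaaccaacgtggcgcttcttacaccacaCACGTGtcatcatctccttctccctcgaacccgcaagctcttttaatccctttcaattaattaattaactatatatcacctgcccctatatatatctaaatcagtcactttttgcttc
Of the 4 called flavonoid genes, CHS, F3H and MYB12 hold these letters, beside 7.09% of all promoters and 7.5% of the promoters of called genes. The F3H window overlaps another annotated gene, AT3G51238. This motif was picked after 10 motifs were searched, so these shares are no test, and a match shows no binding.

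Of 31 auxin genes 4 fell and 2 rose, beside 11.2% of all tested loci called. GH3.1, GH3.5 and GH3.3, which conjugate auxin and are induced by it, fell by 1.59 ± 0.77, 1.45 ± 0.65 and 1.23 ± 0.63 in the authors' deposited table. The repressor IAA30 rose from 2.95 to 7.73 FPKM in the authors' deposited table (1.39 ± 0.68), and IAA2 by 0.57 ± 0.25. Among 13 lateral root genes 3 fell and 1 rose. LBD29 and LBD16, which start lateral roots downstream of auxin, fell by 0.76 ± 0.40 and 0.61 ± 0.39 in the authors' deposited table. The expansin gene EXPA14 rose from 30.9 to 40.8 FPKM in the authors' deposited table (0.40 ± 0.27), while LAX3, an auxin importer, fell (-0.45 ± 0.30). Of 19 genes of the stem cell niche and meristem identity 2 fell and 2 rose, AGL42 among them. SCR and WOX5, of the endodermis and the quiescent centre, fell by 0.85 ± 0.28 and 0.75 ± 0.46 in the authors' deposited table. The growth factor RGF3 rose from 53.7 to 94.2 FPKM in the authors' deposited table (0.81 ± 0.31). PLT1, PLT2, SHR and RGF1 were not called. Of 5 root cap genes CEL5, a cellulase, fell (-0.69 ± 0.27 in the authors' deposited table).

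Smaller counts completed the lists, to be read beside 5.69% of all tested loci called higher and 5.54% lower. No list was tested as a set. No circadian clock gene of 24 was called by the authors' Cuffdiff test, and p-values of loci not called are not listed. Of 31 glucosinolate genes 3 fell and 1 rose, MYB34, an activator of indole glucosinolates, from 81.5 to 191 FPKM in the authors' deposited table (1.22 ± 0.46). Of 17 heat shock genes 2 rose and 1 fell. Of 17 defence and touch genes 2 rose and 2 fell, and MYB15 rose most, by 2.5 ± 1.07 in the authors' deposited table. Of 20 low energy and sugar genes 2 fell, the sugar transporters STP13 and SWEET2, by 0.99 ± 0.33 and 0.88 ± 0.41 in the authors' deposited table. Of 5 genes that use seed reserves 3 fell, led by ICL, isocitrate lyase (-1.41 ± 0.54 in the authors' deposited table), and PCK1 rose (0.50 ± 0.26).

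Among called genes with a transcript of at least 300 nt, several of the 10 highest levels belonged to genes of the translation machinery. Of 356 genes annotated as ribosomal proteins 23 rose and 6 fell, with a median of 0.33 over those called. The share that rose was near the 5.69% of all tested loci called higher. This set was taken by product name and was not split into cytosolic and organellar ribosomes. AT2G43460, ribosomal protein L38, rose from 2135 to 2582 FPKM (0.27 ± 0.20), and AT5G15200, ribosomal protein S4, fell from 2473 to 2072 FPKM (-0.25 ± 0.18) in the authors' deposited table. The elongation factor gene AT5G60390 fell from 2307 to 1537 FPKM in the authors' deposited table (-0.59 ± 0.19), and its near-identical copies AT1G07920, AT1G07930 and AT1G07940 fell by 0.33 to 0.37. GRP9, a glycine-rich protein, and the dehydrin AT1G54410 rose by 0.94 ± 0.20 and 0.80 ± 0.20 in the authors' deposited table.

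Direction moved with transcript length. Of 166 called genes with a longest transcript under 800 nt, 73.5% rose. The share was 49.6% of 1627 genes from 800 to under 2500 nt, and 39.7% of 272 genes of 2500 nt or more. Among genes at 50 FPKM or more the shares were 73.3%, 40.3% and 20.5% in the 3 length classes. Of the ribosomal protein genes that rose 8 were under 800 nt, and of those that fell none was. The part of length in the changes was not tested.

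**Figure D4:**
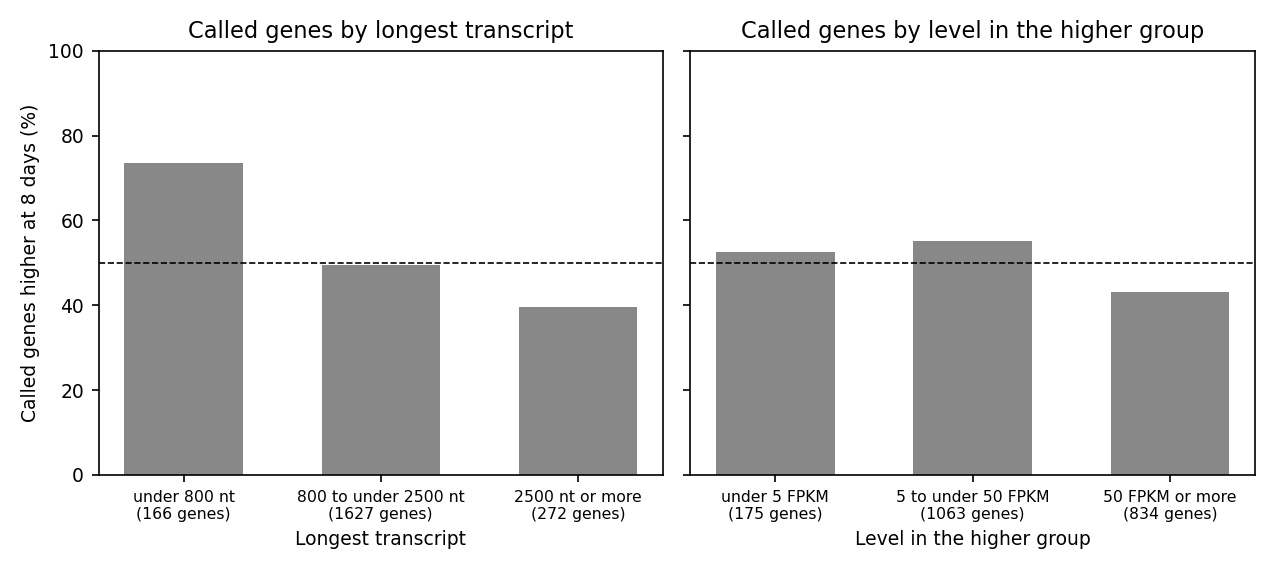
Share of called genes that were higher at 8 days (y axis, percent) by class of longest transcript (left, nt) and by level in the higher group (right, FPKM), with the number of genes per class in brackets; the dashed line marks 50%. The share falls from 73.5% to 39.7% with length, and is 52.6%, 55.1% and 43.2% from the lowest to the highest level.

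The same age comparison was made in flight Col-0 and in ground WS roots, in tables that share no library with this one. Flight Col-0 gave 6.78% called loci and ground WS 6.13%, of which 2.85% were higher and 3.27% lower as shares of tested loci. The table of flight WS gave 6.08%, with 2.65% higher and 3.42% lower. Of the 2072 genes, 647 were also called in flight Col-0, 31.2% of the first list and 51.3% of the second, and 621 of these went in the same direction. In ground WS 360 were also called, 17.37% and 35.8% of the lists, and 346 went in the same direction. In all 4 age tables of the study 132 genes were called, of which 75 rose and 55 fell in each.

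Cambium, low oxygen and phosphate genes called in several tables had the same direction in each. Of the called cambium genes 6 were also called in flight Col-0 and 3 in ground WS, all upward. The 7 low oxygen genes were all called upward in flight Col-0, and 4 of them in ground WS. Of the phosphate genes 8 and 6 were also called, each in the same direction as here. AGL42 rose by 3.5 here, 3.52 in flight Col-0 and 2.81 in ground WS in the authors' deposited tables.

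Other lists differed in count. The 6 monolignol genes that fell here had no called member in flight Col-0 or ground WS. Of the 26 dirigent genes 7 fell here, and 6 rose in flight Col-0. Of the ribosomal protein genes 23 rose and 6 fell here, while 2 rose and 88 fell in flight Col-0, where 3.33% of all tested loci were called higher and 3.45% lower. Of these, 9 were called in both tables and 3 of them rose here and fell in flight. The ribosomal set was not split by kind of ribosome, so the counts here and in flight may cover different kinds. The differences between these counts were not tested.

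Per gene, the difference in age change was tested for genes called in both tables of a pair. Each difference was set against the 2 implied errors combined, with a two-sided normal reference and Benjamini-Hochberg adjustment over both pairs. Of 643 genes tested against flight Col-0, 7 passed, 1.09%, and 50 had an unadjusted p of 0.05 or less. PRX72 fell from 162 to 78.6 FPKM on the ground and rose from 36.9 to 62.2 FPKM in flight, in the authors' deposited tables. Its age changes of -1.04 and 0.75 from the authors' deposited tables differed by -1.80 ± 0.33, with a 95% interval of -2.44 to -1.16 (adjusted p = 3.8e-05). The dirigent gene AT2G39430 fell from 95.7 to 60.4 FPKM on the ground and rose from 19.6 to 46.1 FPKM in flight in the authors' deposited tables, a difference of -1.90 ± 0.44 (adjusted p = 0.0061).

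Against ground WS 2 of 360 genes passed, 0.556%, and 28 had an unadjusted p of 0.05 or less. GASA5, of the gibberellin-regulated family, rose from 263 to 377 FPKM in Col-0 and from 128 to 503 FPKM in WS in the authors' deposited tables, a difference of -1.45 ± 0.35 (adjusted p = 0.0089). AT2G04800, of unknown function, rose from 266 to 431 FPKM in Col-0 and fell from 57.4 to 7.57 FPKM in WS in the authors' deposited tables, a difference of 3.62 ± 0.99 (adjusted p = 0.033). With errors 1.5 times as large, no gene passed in either pair. Genes called in 1 table alone could not be tested. No source used here says how the tables were normalised to each other.

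**Figure D5:**
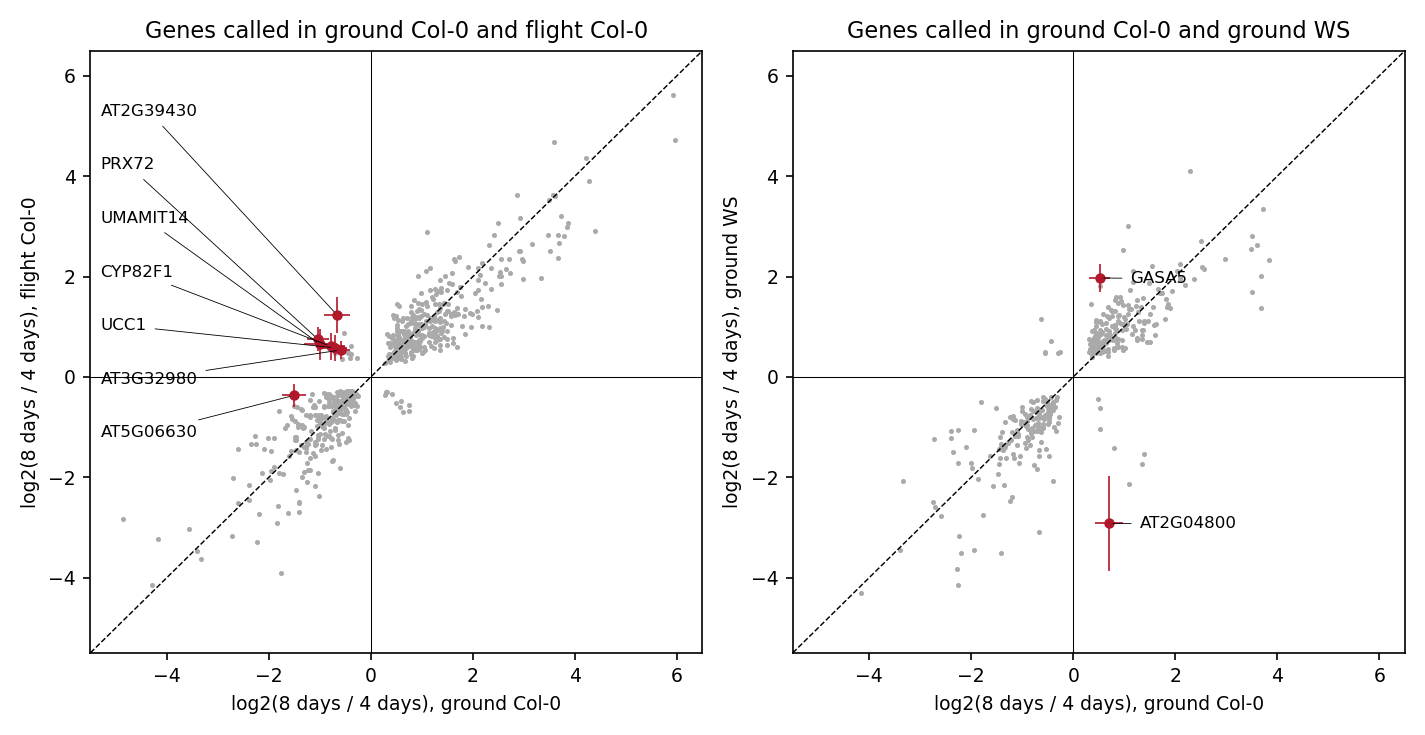
Log2 of the 8 day over the 4 day level in ground Col-0 (x axis) against the same in flight Col-0 (left) or ground WS (right), for genes called in both tables; dashed lines mark equal change, and red points with bars (1 implied error each way) are the 7 and 2 genes whose difference passed the test. Of the 7, all but AT5G06630 fell in ground Col-0 and rose in flight Col-0.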

How the data were processed

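Dissected roots gave 10 ng of RNA per library, copied to full-length cDNA without strand marking and amplified by 8 cycles of PCR, per the labels' protocols. Named per the submitters' processing notes are STAR 2.5.1b and the genome build TAIR10, Cuffdiff and Cufflinks, Picard, and before them Trimmomatic 0.36 and FastQC 0.11.2. No source used here gives their settings. The deposited FPKM values are the authors' 1 estimate per group from 4 libraries. The deposited log2 fold changes are 4 over 8 days and were replaced by log2 of the 8 day over the 4 day FPKM. The deposited test statistic is a score per locus. The deposited p-value and q-value are the authors' own, and the tables list called loci only.

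Each deposited p-value, its rank and its q-value gave back how many loci were tested. The error of a change is its size over that of the test statistic. Of the loci with a fold change, 1169 had a statistic under 1.96 in size, so the deposited p-values do not follow a normal reference and these errors are wide beside the q-values. Loci of several genes (125) or of none (28) and 1 gene listed at 2 loci in opposite directions stayed out of gene lists. Of 9 genes listed at 2 loci, the others entered by the line with the higher level. Of 748 list entries 21 were left out because their symbol was not among the reference names of their ID. Reference symbols, lengths and promoters are those of RefSeq on TAIR10.1, where 2065 of 2072 genes were found, all of them overlapping the deposited position. In promoters, 10 motifs were searched, and those shown were picked after that search.

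Named genes were the 12 largest changes in each direction among genes above 0 FPKM in both groups, reaching 5 FPKM in 1 of them and a transcript of at least 300 nt, the 10 highest levels, up to 6 called members per list, up to 4 per family, and up to 10 per pair of age tables. Genes said not to be called, smaller members given for completeness and families said to be added were named after their values were seen. The members and lists were chosen with earlier results of these data known. Python 3 with pandas, numpy and scipy was used, and the difference test was tested on simulated data. The simulated errors were normal and of the size the test assumes, so they cannot show how it behaves on the deposited values. Alternatives are given in the closing section.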

Additional observations from a re-analysis of the deposited data

Results flagged for a closer look

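In 7 genes the age change differed between ground and flight Col-0 roots by the test of the difference. The change on the ground less that in flight was -1.80 on the log2 scale for PRX72, a class III peroxidase gene, -1.13 for the peroxidase gene AT3G32980 and -1.90 for the dirigent gene AT2G39430. It was -1.29 for UCC1, a uclacyanin gene, -1.64 for UMAMIT14, an amino acid exporter gene, -1.40 for CYP82F1 and -1.14 for AT5G06630, an extensin-like gene. In 2 genes it differed between ground Col-0 and ground WS roots, by -1.45 for GASA5 and 3.62 for AT2G04800. All 9 values rest on group levels in the authors' deposited tables.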

How the results depend on the processing

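With a q-value of 0.01 or less 706 loci were higher and 712 lower at 8 days, and with an absolute log2 change of 1 or more 353 and 225. That size limit left 37 higher and 40 lower list members, of 75 and 108. The limits of 1 or 5 FPKM, loci of 1 gene, and genes of 800 to under 2500 nt kept these total counts within 1.5 times. Counts of single lists moved further. At a q-value of 0.01 or less 12 of 48 did, among them suberin (5 to 2 higher), phloem (7 to 4 higher) and wall genes (10 to 5 lower). With the length limit 8 did, among them triterpenes (6 to 3 lower) and phloem (7 to 4 higher). At 5 FPKM or more 3 did, among them auxin genes (4 to 2 lower), at 1 log2 unit 32 did, and at 1 FPKM 0. With errors 1.5 times as large 0 genes differed from flight Col-0 and 0 from ground WS. At an unadjusted p of 0.05 or less those errors gave 13 and 6 genes. Centring the changes gave 6 and 2. Leaving out a replicate could not be run. No paired analysis was possible because the deposited tables hold group values and none per library. Depth is unknown, so the levels it limits cannot be given.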

Other observations

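These families were taken up after their values were seen. Of 83 genes annotated as homeobox or KNOTTED-like, 14 rose and 3 fell at 8 days in ground Col-0 roots, where 5.69% and 5.54% of all tested loci were called higher and lower. WOX4 and KNAT1 are described above, KNAT4 rose from 0.490 to 1.54 FPKM in the authors' deposited table (log2 change 1.65 ± 0.91), and WOX12, a factor of new root formation, fell from 6.52 to 2.75 FPKM (-1.24 ± 0.60). Of 124 basic helix-loop-helix factor genes, a family listed from the start, 10 rose and 1 fell. PRE5, a small atypical member, rose from 2.59 to 7.36 FPKM in the authors' deposited table (1.51 ± 0.72).

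Among 49 genes of the UMAMIT family of amino acid exporters, 7 fell and none rose, beside 5.54% of all tested loci called lower. UMAMIT28 fell from 42.0 to 20.3 FPKM, SIAR1 from 331 to 170 FPKM and UMAMIT29 from 30.8 to 15.9 FPKM in the authors' deposited table. Of 57 arabinogalactan protein genes 8 fell and 2 rose, with FLA13 from 141 to 51.9 FPKM and AGP30 from 268 to 103 FPKM in the authors' deposited table. A short CLE-like peptide gene, AT5G59305, is listed at 0 at 4 days and at 13.9 FPKM at 8 days in the authors' deposited table, the highest level among the loci listed at 0 in a group.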
